A study of Mus musculus with 8 samples.

Results

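The abundance of 10 transcripts of the integrated stress response was examined in cultured mouse neurons with and without NUAK1, a kinase related to AMPK. The members were Atf4, Atf5, Ddit3, Trib3, Asns, Chac1, Sesn2, Ddit4, Psat1 and Phgdh. They were chosen by symbol as Atf4 and genes known as its targets, by a rule that uses no measured value, though with earlier results of these data known. All 10 were found among the 32726 gene identifiers of the count table, and all 10 passed the filter on low counts that left 16272 genes for testing.

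In the integrated stress response, kinases that sense uncharged tRNA, unfolded protein in the endoplasmic reticulum, double-stranded RNA or haem shortage phosphorylate the translation initiation factor eIF2alpha. General translation then falls, while translation of ATF4, a bZIP transcription factor, rises, and ATF4 induces genes of amino acid synthesis and uptake, redox control and negative feedback. Impaired mitochondria are a known trigger of this response in several cell types, neurons included, and the question for these genes was whether their transcripts were higher in the knockout.

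Poly-A RNA was sequenced from 4 Nuak1 knockout (KO) and 4 wild type (WT) cultures, collected after 5 days in vitro, while axons were still developing. The methods of the study describe primary cultures of embryonic cortical neurons in medium without serum, mice on a C57Bl/6JRj background carrying the Nuak1 tm1a(KOMP)Wtsi allele, constitutive knockouts that die at birth, and a separate animal for each RNA sequencing sample. The labels give the genotype only as KO or WT and the cell type as neurons. For tissue the labels read cortex or hippocampus in all 8 libraries, and the brain region of a given library is therefore unknown. The labels also carry strain codes that no source explains, BJ in KO1, KO2 and KO3, BK in KO4, WT2 and WT4, BO in WT1 and BQ in WT3, so that code and genotype are largely confounded. The loss is not restricted to a cell type in a constitutive knockout.

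ATF4 binds composite sites called C/EBP-ATF response elements (CARE), here searched by the core letters TGATGNAA on both strands in the RefSeq promoter window, from 250 bases before to 50 bases after the annotated start (GRCm38.p6). A match was found for 3 of 10 members, Chac1, Asns and Trib3, and for 4.51% of all 27025 genes with such a window (1219 genes). The sequence around each match is shown because these are the members in which the letters of the element can be seen. Capitals mark the match, which lies on the strand opposite to the gene in Chac1 and Trib3, so that the reverse complement is printed there.
Chac1: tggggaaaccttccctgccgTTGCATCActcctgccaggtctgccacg
Asns: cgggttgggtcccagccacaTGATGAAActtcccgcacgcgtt
Trib3: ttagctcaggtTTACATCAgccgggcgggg
The Chac1 stretch is chr2:119351029-119351076 on the plus strand, with the match beginning 193 bases before the start site. The Asns stretch is chr6:7693210-7693252 on the minus strand, with the match beginning 23 bases before the start site. The Trib3 stretch is chr2:152344028-152344057 on the minus strand and lies within the start of the transcript, with the match beginning 14 bases after the start site. In the other 7 members these letters were not in the window searched, which says nothing of binding by ATF4 there or elsewhere.

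The libraries held 31247078 to 67155004 counts, with a median of 39224504. Nuak1 itself, the check of the labels, lay between 1.96 and 2.72 CPM (a gene's count as a share of the library total, scaled to a common size) in KO and between 51.6 and 82.6 CPM in WT (log2 fold change −4.89, SE 0.13, adjusted p = 1.24e-07). KO1 and WT1 stood apart from the other 6 libraries: across 13636 genes the Spearman correlation of transcript GC content with a gene's deviation in the library was −0.74 in KO1 and −0.77 in WT1, against 0.28 to 0.66 in the others, and the mitochondrial genome took 5.88% and 5.46% of their counts, against 2.33% in WT3 and 3.37% to 4.12% in the other 5. Both are on lane A, as are KO4 and WT3. The other 4 libraries are on lane B, and the meaning of lanes A and B is not given. The defining markers of neurons were abundant, with Map2 at 3049 ± 355.3 CPM over the KO libraries and 3235 ± 440.8 CPM over the WT libraries (mean ± SD, n = 4 per genotype, as for all means below). Because the p-values compare animals grown as separate cultures within a single study, they measure only the spread among these 8 samples.

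No rise of the 10 transcripts was detected in KO. All 10 were fitted lower in KO (46.2% of all tested genes were), by 0.04 to 0.62 on the log2 scale, but 0 of 10 passed the adjusted threshold of 0.05 (edgeR quasi-likelihood test with Benjamini-Hochberg adjustment over all tested genes), which 0.0492% of all tested genes passed, and 0 of 10 had an unadjusted p under 0.05, against 10.6% of all genes. That count was 4 without WT2 (Atf4, Atf5, Asns and Ddit4), 2 without KO2 (Trib3 and Asns) and 1 with DESeq2 (Asns). Of all genes, 3, 4 and 168 passed the adjusted threshold in these fits, beside 8 in the reported fit. The 10.6% belongs to the reported fit of all 8 libraries. No such share is given for other fits, here or for the lists below, so their counts cannot be set against one. KO and WT values overlapped for each of the 10 members, whereas 2.40% of all genes had CPM values that did not overlap. The median log2 fold change of the members was −0.27, beside 0.015 over all tested genes. Single libraries differed far more than genotypes did: WT3 was the highest library for 9 of 10 members, and KO1 or WT1 was the lowest for all 10.

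**Figure D1:**
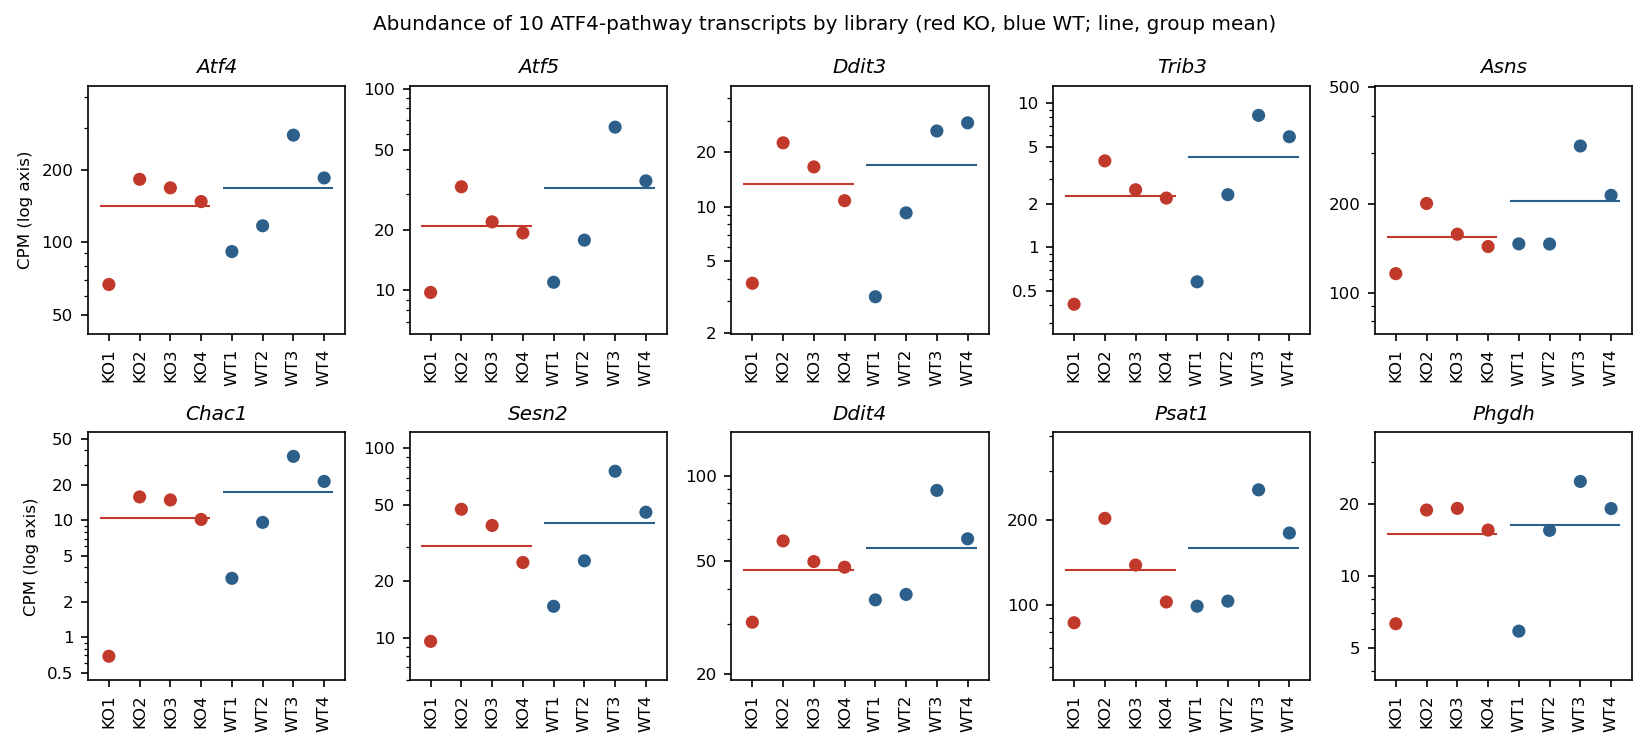
CPM of each member (vertical axis, log scale) in the 8 libraries (horizontal axis), with KO points in red, WT points in blue and a line at each group's mean. KO1 or WT1 is the lowest point in each of the 10 panels, WT3 is the highest in 9 and WT4 in that of Ddit3, and the 2 genotypes overlap in each panel.

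Atf4 (ENSMUSG00000042406, GRCm38 chromosome 15, 80255184 to 80257545) encodes the transcription factor at the centre of the response. Its transcript was at 66.8, 182.7, 168.4 and 147.7 CPM in KO1 to KO4 and at 91.5, 117.2, 278.9 and 185.2 CPM in WT1 to WT4. KO1 and WT1 were the lowest libraries and WT3 the highest, with the other 3 KO libraries inside the WT range. The means were 141.4 ± 51.8 CPM in KO and 168.2 ± 83.7 CPM in WT, and the log2 fold change was −0.23 with a 95% interval of −0.69 to 0.23 (adjusted p = 0.712). ATF4 is known to be controlled mainly at translation, which these counts do not measure.

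Atf5 (ENSMUSG00000038539, chromosome 7, 44812256 to 44816658), a related bZIP factor linked to the mitochondrial unfolded protein response, was at 9.77, 32.7, 21.9 and 19.3 CPM in KO1 to KO4. In WT1 to WT4 it was at 10.98, 17.8, 64.6 and 35.0 CPM. WT3 lay well above the other 7 libraries, and KO2, KO3 and KO4 lay between WT2 and WT4. The log2 fold change was −0.43 (SE 0.33, interval −1.18 to 0.32, adjusted p = 0.660). The gene overlaps Il4i1b and Nup62 in the annotation, and the use of strand in counting is not stated.

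Ddit3 (ENSMUSG00000025408, chromosome 10, 127290793 to 127296291) encodes CHOP, a factor that promotes cell death under lasting stress. It was at 3.76, 22.6, 16.6 and 10.8 CPM in KO1 to KO4 and at 3.17, 9.25, 26.3 and 29.2 CPM in WT1 to WT4. Ddit3 was the member in which WT4, not WT3, was highest, and WT1 was lower than KO1. The log2 fold change of −0.13 (SE 0.43) had an interval of −1.12 to 0.85 (adjusted p = 0.934). It shares its position with parts of Mars1 and Mbd6, so the same limit on strand holds.

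Trib3 (ENSMUSG00000032715, chromosome 2, 152337425 to 152344060), a pseudokinase that restrains ATF4 and CHOP in negative feedback, was the least abundant member. The KO libraries, in order of replicate number, held 14, 138, 131 and 89 reads of it and the WT libraries 18, 156, 394 and 223, that is 0.402, 3.99, 2.51 and 2.1996 CPM in KO and 0.576, 2.32, 8.27 and 5.87 CPM in WT. KO1 and WT1 lay under 1 CPM while the other 6 libraries lay above 2 CPM. The means of 2.28 ± 1.47 and 4.26 ± 3.46 CPM gave a log2 fold change of −0.62 with an interval of −1.59 to 0.34 (adjusted p = 0.622).

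Chac1 (ENSMUSG00000027313, chromosome 2, 119351242 to 119354326), an enzyme that degrades glutathione, had the widest range among the members. It was at 0.690, 15.9, 15.0 and 10.2 CPM in KO1 to KO4 (24, 550, 781 and 413 reads) and at 3.20, 9.63, 35.3 and 21.6 CPM in WT1 to WT4 (100, 647, 1685 and 820 reads). The highest library, WT3, was 51.2 times the lowest, KO1, a ratio that 0.178% of tested genes reached. Genotype means were 10.4 ± 6.97 CPM in KO and 17.4 ± 14.2 CPM in WT, and the fitted difference was −0.62 on the log2 scale (SE 0.43, interval −1.61 to 0.38, adjusted p = 0.638).

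Sesn2 (ENSMUSG00000028893, chromosome 4, 132492804 to 132510456) and Ddit4 (ENSMUSG00000020108, chromosome 10, 59949675 to 59951770, also called REDD1) both encode inhibitors of the growth kinase complex mTORC1. Sesn2 was at 9.60, 47.7, 39.2 and 25.0 CPM in KO1 to KO4 and at 14.7, 25.5, 75.6 and 46.0 CPM in WT1 to WT4. KO2 was the second highest library for Sesn2, after WT3. Ddit4 was at 30.4, 58.9, 49.8 and 47.6 CPM in KO and at 36.5, 38.1, 88.7 and 59.9 CPM in WT. It spread less, with WT2 close to WT1 and KO2 close to WT4. The log2 fold changes were −0.31 for Sesn2 (interval −1.04 to 0.41, adjusted p = 0.756) and −0.24 for Ddit4 (interval −0.68 to 0.20, adjusted p = 0.688).

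Asns, Psat1 and Phgdh encode enzymes of amino acid synthesis. Asns (ENSMUSG00000029752, chromosome 6, 7675165 to 7693209), which makes asparagine, was at 116.2, 201.3, 158.2 and 143.7 CPM in KO1 to KO4 and at 146.7, 146.5, 315.9 and 214.6 CPM in WT1 to WT4. Here WT1 was level with WT2 and above KO4, so Asns was the one member for which KO1 and WT1 were not the lowest pair. Asns also had the smallest unadjusted p of the 10 at 0.0727 (edgeR quasi-likelihood test). Its means of 154.8 ± 35.5 CPM in KO and 205.9 ± 80.003 CPM in WT went with a difference of −0.40 in log2 (SE 0.19, interval −0.84 to 0.05, adjusted p = 0.511).

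Psat1 (ENSMUSG00000024640, chromosome 19, 15905123 to 15925059) and Phgdh (ENSMUSG00000053398, chromosome 3, 98313171 to 98339969) act in serine synthesis, where PHGDH catalyses the first step. Psat1 was at 86.2, 203.0, 138.4 and 102.2 CPM in KO1 to KO4 and at 98.8, 103.0, 256.4 and 180.0 CPM in WT1 to WT4. KO4 was level with WT1 and WT2, and KO2 lay between WT4 and WT3. The log2 fold change of Psat1 was −0.23 (interval −0.86 to 0.40, adjusted p = 0.799).

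Phgdh was at 6.32, 18.8, 19.1 and 15.5 CPM in KO1 to KO4 and at 5.89, 15.5, 24.8 and 19.1 CPM in WT1 to WT4. KO2, KO3 and KO4 lay close to WT2 and WT4, and the log2 fold change of −0.04 (interval −0.34 to 0.26, adjusted p = 0.934) was the smallest of the 10. Its count is uncertain, since 96.6% of its transcript (1829 of 1893 bases) matched other places in the NCBIM37 genome at 95% identity or more, the longest match being 1833 bases at 96.0%, and reads aligning to several places were not counted. The other 9 transcripts had no such match.

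**Figure D2:**
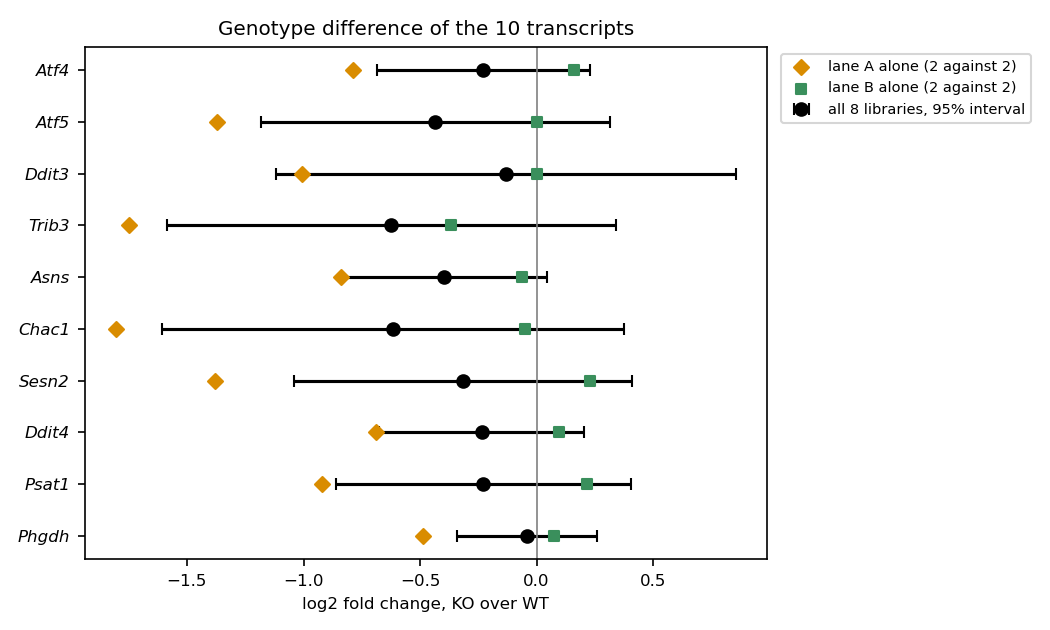
Log2 fold change of each member, KO minus WT, with its 95% interval from the edgeR fit (horizontal axis, log2 units), beside the zero line. All 10 points of the fit of all 8 libraries lie below 0 and all 10 intervals include it. Diamonds show lane A alone, with 10 of 10 below 0. Squares show lane B alone, with 3 of 10 below 0.

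Scaled to exon length, the order of the members by WT mean ran from Atf4 at 97.6 and Asns at 75.3 CPM per kilobase, through Psat1 at 37.5, Ddit4 at 33.1, Atf5 at 16.1, Sesn2 at 11.6, Chac1 at 10.7, Ddit3 at 9.90 and Phgdh at 6.57, to Trib3 at 2.004 CPM per kilobase. Every pair of neighbours in this order overlapped over the 8 libraries. Within libraries, Asns lay above Psat1, Ddit4 above Atf5, Sesn2 above Chac1 and Phgdh above Trib3 in 8 of 8. Atf4 lay above Asns in 6 of 8 libraries, Ddit3 above Phgdh in 5 of 8 and Chac1 above Ddit3 in 3 of 8, so the order of those neighbours differed by less than the libraries did.

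The 10 transcripts varied together from library to library. On the log2 scale the mean of the members was 3.599, 5.44, 5.12 and 4.80 in KO1 to KO4 and 3.96, 4.71, 6.09 and 5.57 in WT1 to WT4. The SD among libraries of the same genotype, pooled over KO and WT, was 0.876. WT3 was highest and KO1 lowest, while WT2 lay below 3 of the 4 KO libraries. Over all pairs of members, Pearson's r of log2 CPM over the 8 libraries had a median of 0.94 and ranged from 0.73 (Asns with Phgdh) to 0.99 (Atf4 with Sesn2). Without KO1 and WT1 the median over the remaining 6 libraries was also 0.94. These correlations are descriptions, and the points share library depth and GC bias.

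The spread of the members was wide beside that of other genes. The ratio of the highest to the lowest library had a median of 5.41 over the members and 1.76 over all tested genes, and ranged from 2.72 for Asns to 51.2 for Chac1. Of all tested genes, 21.5% were highest in WT3 and 41.2% were lowest in KO1 or WT1, against 9 of 10 and 10 of 10 members. KO1 and WT1 were the lowest pair for 28.8% of all genes and for 9 of 10 members.

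GC content, the mitochondrial share and markers of other cells also differed between libraries, not always in step with the members. The correlation of GC content with deviation set KO1 and WT1 apart but was 0.46 in WT3 and 0.45 in WT2. The members' mean log2 deviations in WT3 and WT2 were 1.18 and −0.20. The transcripts of the members had a GC content of 47.7% to 61.7% (median 57.3%), beside a median of 50.3% over all genes with a value. After the median of genes of like GC content was subtracted in each library, the mean deviation of the members was −0.91 in KO1, −0.47 in WT1 and 0.95 in WT3 (log2), in place of −1.31, −0.95 and 1.18. WT3 was then still the highest library for 9 of 10 members, and KO1 or WT1 the lowest for 8 of 10. WT3, which had the lowest mitochondrial share, also had the lowest summed level of astrocyte and radial glia markers at 1821 CPM, where WT1, WT2 and WT4 had 2114 to 2295 CPM and the KO libraries 2020 to 2488 CPM. These sums were alike in KO1 and KO2, at 2431 and 2411 CPM, where the members deviated by −1.31 and 0.53. By mean log2 CPM the markers were level in WT3 and KO4, at 5.508 and 5.511. The part of GC content, the mitochondrial share and these markers in the level of the members was not tested.

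**Figure D3:**
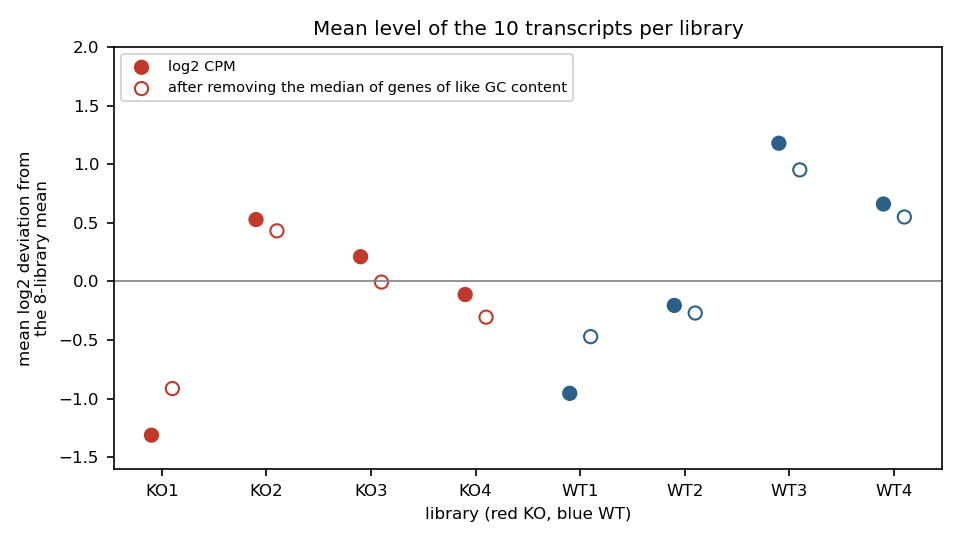
Mean log2 deviation of the 10 members from their mean over the 8 libraries (vertical axis) by library, before and after the median of genes of like transcript GC content was subtracted. KO1 and WT1 stay below 0, at −0.91 and −0.47, and WT3 stays highest at 0.95.

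None of the 6 marker lists of neurons, glia and vascular cells held a gene past the adjusted threshold over the 8 libraries. On lane B alone the astrocyte markers Aqp4 and Aldoc were higher in KO (log2 fold changes 0.95 and 0.42, adjusted p = 0.00582 and 0.0413), while the median of the 15 astrocyte and radial glia markers there was 0.057, with 5 fitted lower and 3 higher and 1 lower at an unadjusted p under 0.05. Microglia were scarce, with summed markers of 4.03 to 50.7 CPM across KO and 4.99 to 23.1 CPM across WT, with P2ry12 and Tmem119 too low to be tested. Of the 9 tested, 8 were fitted higher in KO (median log2 fold change 1.34), with 0 at an unadjusted p under 0.05 in the fit of all libraries, 7 without KO4 and 6 without WT4. With strain codes fitted, all 9 were lower, with a median of −2.19. Endothelial, mural and fibroblast markers summed to 20.5 to 40.1 CPM across KO and 10.5 to 51.8 CPM across WT, with Cldn5 and Flt1 not tested. Oligodendrocyte lineage markers summed to 508.4 to 611.0 CPM across KO and 485.5 to 591.5 CPM across WT. Interneuron markers summed to 208.2 to 346.3 and 189.7 to 307.4 CPM, and glutamatergic projection neuron markers to 4613 to 5400 and 4740 to 5222 CPM. Of 8 interneuron markers 3 were fitted lower in KO over all libraries (median log2 fold change 0.16), with 0 at an unadjusted p under 0.05. On lane B 2 were lower, the median was 0.42, and 4 were higher at such a p. Without WT3 0 were lower and 1 was higher at such a p, and with strain codes fitted 4 were lower. In bulk RNA, fewer cells of a type and less RNA per cell cannot be told apart.

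The fitted difference between genotypes depended on which libraries were used. On lane A, which holds KO1, KO4, WT1 and WT3, all 10 members were lower in KO with a median log2 fold change of −0.96. On lane B, which holds KO2, KO3, WT2 and WT4, 3 of 10 were lower and the median was 0.038. The interaction of lane and genotype, 0.58 for Phgdh to 1.76 for Chac1, passed the adjusted threshold for 0 of 10 members (edgeR, adjusted p = 0.99998 for each, lowest unadjusted p = 0.121 for Psat1). Without WT3 the median was −0.14 with the surrogate variable, a term for unlabelled variation among libraries, and −0.027 without it, where 5 of 10 members were lower. Without KO1 and WT1 together it was −0.41, and without KO1, WT1 and WT3 together −0.060.

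**Figure D4:**
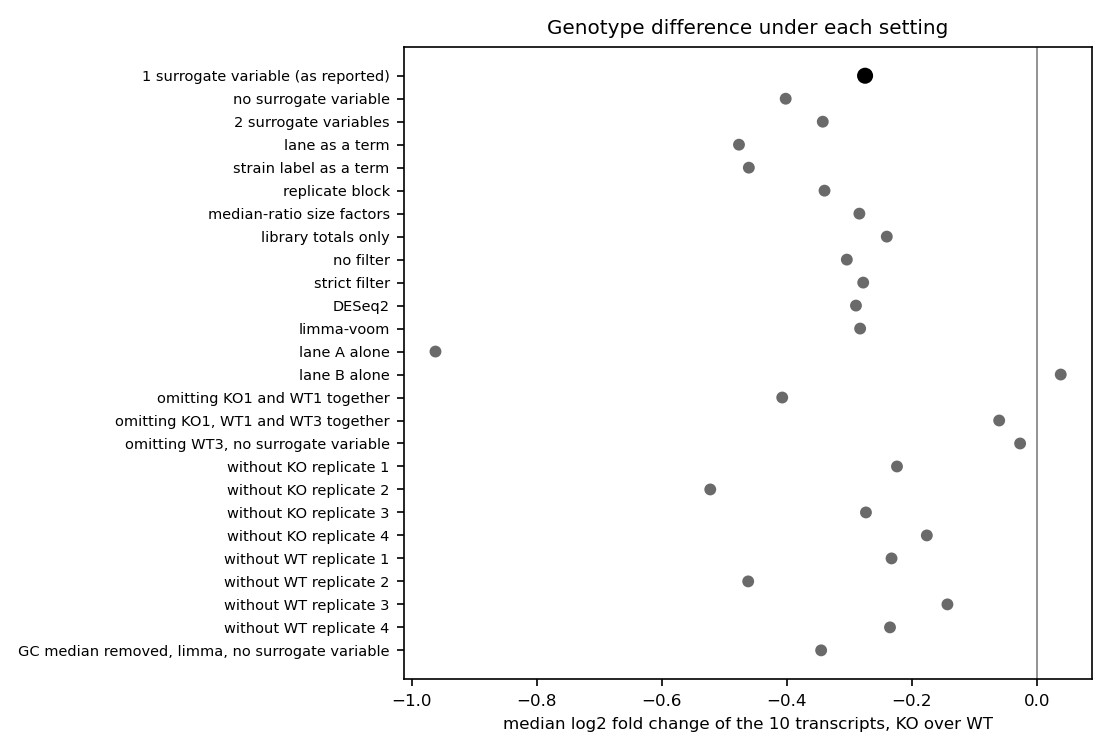
Median log2 fold change of the 10 members, KO minus WT (horizontal axis), under each way of fitting or each set of libraries (vertical axis). The median runs from −0.96 on lane A alone to 0.038 on lane B alone, with the reported value at −0.27.

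No gene upstream of Atf4 passed the adjusted threshold. The 4 eIF2alpha kinases had a median log2 fold change of −0.012, with 0 of 4 at an unadjusted p under 0.05. Eif2ak3, which encodes the endoplasmic reticulum kinase PERK, was at 60.9 ± 11.9 CPM in KO and 75.5 ± 30.7 CPM in WT (log2 fold change −0.33, adjusted p = 0.613). Eif2ak4, which encodes the amino acid sensor GCN2, was at 36.1 ± 1.95 and 36.7 ± 2.25 CPM (−0.06, adjusted p = 0.758). KO1 and WT1 were the lowest libraries for Eif2ak3 but not for the other 3 kinases, WT3 was the highest for none, and the mean log2 deviation of the 4 was 0.0002 in KO1, 0.05 in WT1 and −0.20 in WT3.

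A list of 13 genes held those of eIF2, its exchange factor eIF2B and its phosphatases, and also Oma1, Dele1 and Gcn1. Its median log2 fold change was 0.048 and 1 gene had an unadjusted p under 0.05. This was Ppp1r15b, the constitutive phosphatase subunit (log2 fold change −0.23, adjusted p = 0.364). The next smallest p was that of Gcn1, an activator of GCN2 (−0.15, adjusted p = 0.545). Ppp1r15a, which encodes the stress-induced subunit GADD34, was at 4.25, 14.5, 13.5 and 10.1 CPM in KO1 to KO4 and at 4.48, 7.74, 24.3 and 20.5 CPM in WT1 to WT4. KO1 and WT1 were its lowest libraries and WT3 its highest, and its log2 fold change was −0.29 with an SE of 0.31 (adjusted p = 0.769).

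Of 7 bZIP partners and relatives of ATF4, 5 were tested and 0 had an unadjusted p under 0.05 (median log2 fold change −0.10). Atf3, another stress-induced factor, was at 1.45 ± 0.813 CPM in KO and 1.93 ± 1.92 CPM in WT (−0.22, adjusted p = 0.928). Nfe2l2, the antioxidant factor NRF2, and Jund had the smallest p, at log2 fold changes of 0.21 and −0.28 (adjusted p = 0.675 and 0.712). Cebpb and Cebpd were too low to be tested, Cebpb with group means of 0.065 CPM in KO and 0.072 CPM in WT.

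Amino acid transporters and tRNA synthetases, which ATF4 is known to induce, held the most genes with an unadjusted p under 0.05 of the related lists, but none past the adjusted threshold. All 9 transporters were fitted lower in KO (median log2 fold change −0.39) and 6 of 9 had an unadjusted p under 0.05, beside 10.6% of all genes. Slc38a2, a transporter of neutral amino acids, was at 287.6 ± 12.9 CPM in KO and 332.9 ± 29.8 CPM in WT (−0.25, SE 0.07, adjusted p = 0.341). Slc7a11, the cystine importer, was at 13.1 ± 4.27 and 19.8 ± 7.43 CPM (−0.59, SE 0.22, adjusted p = 0.409). The number of transporters at an unadjusted p under 0.05 was 1 with no surrogate variable and 0 when strain codes were fitted instead. It was 1 without KO1 or without WT1, 3 without KO3, WT3 or WT4, 9 without KO2, 2 on lane A and 1 on lane B.

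Of 13 cytosolic tRNA synthetases and Xpot, a tRNA exporter, 12 were fitted lower (median −0.22) and 7 had an unadjusted p under 0.05. Eprs, the glutamyl-prolyl enzyme, was at 304.1 ± 28.8 CPM in KO and 366.7 ± 34.5 CPM in WT (log2 fold change −0.31, SE 0.08, adjusted p = 0.281), and Tars, the threonyl enzyme, was at 71.1 ± 17.9 and 90.2 ± 25.8 CPM (−0.34, adjusted p = 0.362). With DESeq2 the adjusted p of Eprs was 0.0262. The number at an unadjusted p under 0.05 was 1 with no surrogate variable or when strain codes were fitted instead. It was 9 without KO2 and 10 without WT2, 1 or 2 without any other single library, 0 on lane A and 1 on lane B.

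One-carbon, serine and proline enzymes varied across libraries much as the members did. Of these 13 genes 11 were fitted lower (median log2 fold change −0.27), 0 had an unadjusted p under 0.05, 10 were highest in WT3, and KO1 and WT1 were the lowest pair in 10. The 0 became 6 without KO2, 7 without WT2, 3 with DESeq2 and 2 with the replicate block. Mthfd1l, a mitochondrial folate enzyme, had −0.42 (adjusted p = 0.526) and Psph, the last enzyme of serine synthesis, had −0.35 (adjusted p = 0.539).

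Of 13 other ATF4 targets and secreted stress factors 11 were tested, 8 were fitted lower, and 3 lower and 1 higher had an unadjusted p under 0.05. The lower count was 5 without KO2, 1 with no surrogate variable, and 0 on lane A or when strain codes were fitted, and the median, −0.24, was 0.071 on lane B. Vldlr, a lipoprotein and reelin receptor, was at 239.4 ± 27.1 CPM in KO and 291.6 ± 35.2 CPM in WT (log2 fold change −0.33, SE 0.06, adjusted p = 0.125). Vldlr was the closest of all listed genes to the threshold, and its adjusted p was 0.0381 without WT3 and 6.5e-05 with DESeq2. Unlike the members, it was highest in WT1, at 342.4 CPM. Ero1a, an oxidase of the endoplasmic reticulum, had −0.24 (adjusted p = 0.288). The mitokines Fgf21 and Gdf15, secreted when mitochondria are impaired, were too low to be tested, Fgf21 at means of 0.090 CPM in KO and 0.195 CPM in WT and Gdf15 at 0.059 and 0.067 CPM.

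**Figure D5:**
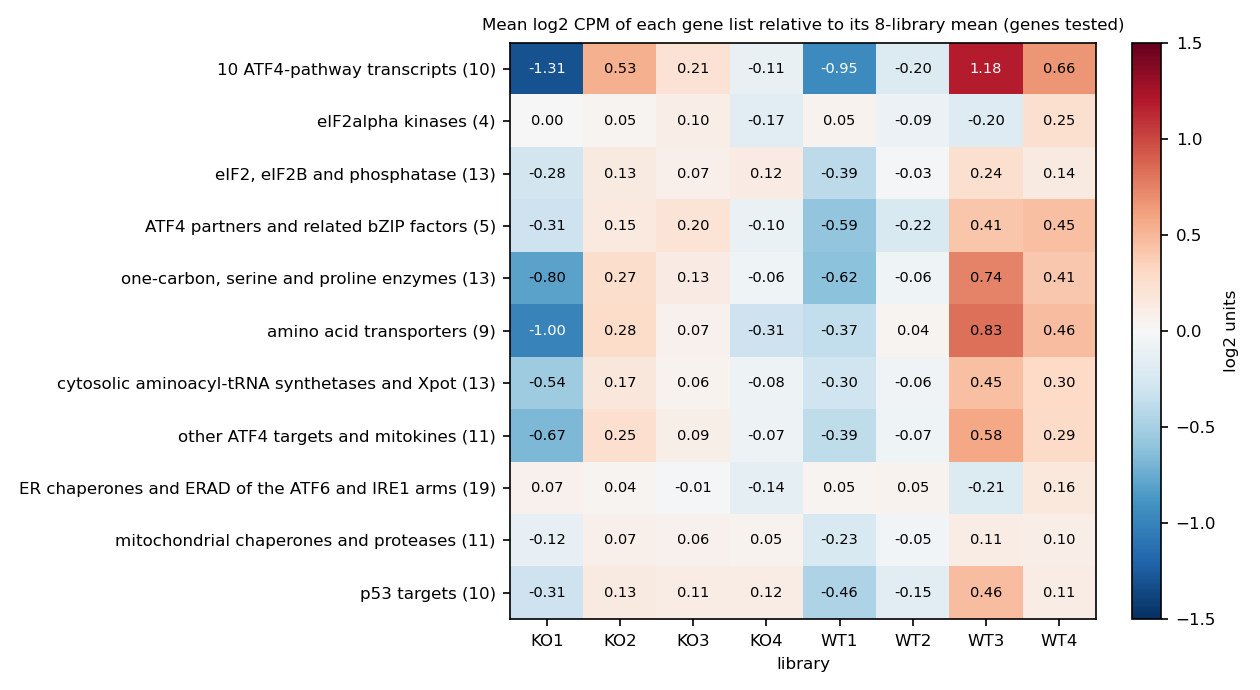
Mean log2 CPM of each gene list relative to its own mean over the 8 libraries, by library, for the members and the related lists. The members run from −1.31 in KO1 to 1.18 in WT3, the transporters from −0.997 to 0.83, and the chaperones of the endoplasmic reticulum from −0.21 in WT3 to 0.16 in WT4.

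Chaperones of the endoplasmic reticulum were on average lowest in WT3, where the members were highest. Of 19 such chaperones and degradation genes, known targets of the ATF6 and IRE1 arms, 13 were fitted lower (median log2 fold change −0.050), 1 had an unadjusted p under 0.05, and 1 was highest in WT3. Without WT3 18 of 19 were fitted lower, the median was −0.12 and 6 had an unadjusted p under 0.05. On lane B alone 18 were lower and 7 had such a p, with 2 surrogate variables 17 and 5, and on lane A alone 10 and 0. Hspa5, which encodes the chaperone BiP, was lowest in WT3, at 314.7 CPM, with means of 383.4 ± 46.3 CPM in KO and 406.3 ± 69.5 CPM in WT (−0.13, adjusted p = 0.625). Sel1l, a degradation adaptor, had the smallest p (−0.24, adjusted p = 0.392), followed by Dnajc3 (−0.17, adjusted p = 0.532). The difference between this list and the members was not tested.

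Among 11 mitochondrial chaperones and proteases, the set of the mitochondrial unfolded protein response, the median was −0.010 and 1 gene in each direction had an unadjusted p under 0.05. Yme1l1, an inner membrane protease, had a log2 fold change of −0.15 (adjusted p = 0.404), and Hspe1, the co-chaperone HSP10, was at 16.3 ± 0.888 CPM in KO and 14.0 ± 1.12 CPM in WT (0.19, adjusted p = 0.447). The p53 targets, included because Sesn2 and Ddit4 are also known to respond to p53, had a median of 0.031 over 10 genes, with 0 at an unadjusted p under 0.05 (2, both higher in KO, without WT3). Of these 10, 7 were highest in WT3, and their mean log2 deviation was −0.31 in KO1, −0.46 in WT1 and 0.46 in WT3. Their smallest p-values were those of Bax (0.15, adjusted p = 0.545) and Sesn1 (0.09, adjusted p = 0.630).

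The tested genes whose log2 CPM most resembled the mean standardized profile of the members over the 8 libraries were Psph, Pck2, Gys1, Pde4dip, Yars, Npas4, Fosb, Slc3a2, Ppp1r15a and Atic, with Pearson's r from 0.98 for Atic to 0.99 for Psph, and from 0.94 to 0.98 over the 6 libraries without KO1 and WT1. Of these 10, Psph, Pck2, Yars, Slc3a2 and Ppp1r15a are in the lists above. Npas4 and Fosb are activity-dependent transcription factors of neurons. Their log2 fold changes were −0.18 and −0.91 (adjusted p = 0.728 and 0.579).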

How the data were processed

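Poly-A RNA of 4 KO and 4 WT mouse neuron cultures was sequenced from stranded TruSeq libraries. The authors deposited unnormalized read counts for each Ensembl gene. They demultiplexed with bcl2fastq 2.17.1.14, trimmed with Cutadapt 1.10, discarded ribosomal RNA reads (Bowtie2 2.2.8 is listed), aligned to mm10 with STAR 2.5.3a and counted uniquely aligned reads with HTSeq-count 0.6.1p1 in union mode. Strand use is not stated, and labels and methods differ on read length. Unique alignment and union mode lower the counts of copied or overlapping genes. The authors tested with DESeq2, surrogate variables and weighted p-values.

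For this report edgeR 4.0.16 in R 4.3.3 was fitted to the counts (filterByExpr, TMM, robust quasi-likelihood F test, Benjamini-Hochberg adjustment, threshold 0.05) and 1 surrogate variable from svaseq (sva 3.50.0, on TMM-scaled counts). Standard errors were taken from the log2 fold change and F (absolute value over the root of F). The procedure was tested on simulated data. Alternatives used DESeq2 1.42.0 and limma 3.58.1, other terms, filters, size factors and library sets. Log2 CPM used an offset of 0.5. The table had 32726 identifiers, of which 23260 matched a symbol and 20935 a RefSeq GRCm38 position. Exon lengths and transcript sequences came from an NCBIM37 annotation, used with blastn 2.17.0 for matches of 50 bases or more.

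Members and lists were chosen with earlier results of these data known. Named in each list were genes past the threshold, the 2 with the smallest p, and Ppp1r15a, Atf3, Cebpb, Slc7a11, Hspa5, Gdf15, Fgf21, Eif2ak3 and Eif2ak4 whatever their values, plus the 10 genes most like the members and Nuak1 as the label check. The 2 genes with the smallest p in each marker list were, with log2 fold changes, Aldoc (0.27) and Aqp4 (0.62), C1qc (1.53) and Trem2 (1.60), Cspg4 (−0.15), Pecam1 (−0.24) and Rgs5 (0.34), Dlx2 (0.51) and Lhx6 (0.41), and Slc17a7 (−0.32) and Map2 (−0.13), all with an adjusted p over 0.05 in edgeR over the 8 libraries. A further gene of these lists is not reported here. Any pair of libraries differed by a chi-square of at least 19.9 per degree of freedom, so none was a duplicate.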

Additional observations from a re-analysis of the deposited data

How the results depend on the processing

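No member passed the adjusted threshold in any alternative, the lowest adjusted p being 0.291, for Asns with DESeq2. Median log2 fold changes of the members were −0.40 with no surrogate variable, −0.34 with 2, −0.48 with lane as a term, −0.46 with the strain label as a term, −0.28 with median-ratio size factors, −0.24 with library totals, −0.30 with no filter, −0.28 with a strict filter, −0.29 with DESeq2 and −0.28 with limma-voom, and −0.52 to −0.14 when 1 library was left out. Genes called over the whole table numbered 8 as reported, 168 with DESeq2, 91 without WT3, 99 on lane B, 45 with no filter, and 0 on lane A, and 1 to 11 otherwise. The median changed sign on lane B alone, at 0.038, and single members reversed in 21 cases. The cause was not tested. On lane B alone Atf4 was 0.16, Atf5 0.0011, Ddit3 4.2e-05, Sesn2 0.23, Ddit4 0.094, Psat1 0.22 and Phgdh 0.075. Chosen after seeing the data, the fit without KO1, WT1 and WT3 gave Atf4 0.10, Sesn2 0.029, Ddit4 0.055, Psat1 0.029 and Phgdh 0.0072, that without WT3 and the surrogate variable gave Atf4 0.062, Sesn2 0.032, Ddit4 0.014, Psat1 0.012 and Phgdh 0.097, and subtracting the median of genes of like GC content gave a median of −0.35. With 1 library left out Ddit3 ranged from −0.52 to 0.30 (above 0 without KO4 or WT4) and Phgdh from −0.17 to 0.054 (above 0 without KO4 or WT4). With the replicate block the median was −0.34, 0 members and 3 genes in all were called, and it changed no call of a member. Same-numbered libraries had deviations correlated at 0.87, 0.058, 0.34 and 0.11, and KO2 and KO3 correlated best with WT4, so the numbers were not taken to pair the samples.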
